A study of Mus musculus with 15 samples.

Results

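The late-only falling genes were 132 of the 16772 genes in the deposited TMM-normalised table, where TMM (trimmed mean of M values) scales each library so that most genes keep their level. Their transcripts held their level 6 h after OCT4 degradation began in O4AID ESCs and stood far below it at 24 h. The members were chosen by 3 O4AID libraries: a TMM-normalised count of at least 100 at 0 h, a 6 h value of at least 0.85 times 0 h, and a 24 h value of at most 0.5 times 0 h. Of the 11559 genes at or above 100 at 0 h, 512 (4.43%) stood at or below 0.5 times 0 h at 24 h. Among these 512, 101 were already at or below 0.5 at 6 h, 279 lay between, and 132 were the late-only genes. The 0, 6 and 24 h values chose the members, so they are given here as a description with no test.

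O4AID ESCs are a 129SV line with the genotype Oct4-/- that carries a TetOFF Oct4 transgene, held silent by doxycycline, and lives on CAG Oct4AID, an OCT4 fused to an auxin-inducible degron, beside CAG Tir1. IAA (auxin, 500 µM) joins the fusion protein to Tir1 and marks it for degradation. There is 1 O4AID library at each of 0, 1.5, 6, 10 and 24 h, with 0 h untreated. The second line, Oct4F/- CreER ESCs, has a mixed 129SV C57BL/6 background, a floxed *Oct4* allele opposite a null allele (Oct4Fl/-) and a Cre recombinase under CAG (CAG CreER) that 4-OHT (500 nM) activates to delete the gene. There are 2 CreER libraries at each of 0 (untreated), 12, 18, 24 and 36 h. The labels give N2B27 medium with LIF and inhibitors of MEK and GSK3 for both lines, whereas the study describes OCT4 loss in the CreER line after a change to serum and LIF, and which medium the CreER libraries had is not given separately. Some targets of MEK-ERK signalling were far apart in untreated cells: *Spry4* stood at 60.0 in O4AID and 6384 in CreER, and *Dusp6* at 242 and 4345. *Dusp4* stood at 55.8 and 2108 and *Egr1* at 5.58 and 215. Others were closer, with *Etv4* at 1826 and 2028 and *Spry2* at 1866 and 2975. *Spred1* stood at 1842 and 3912 and *Fos* at 53.1 and 68.4. *Etv5* (18357 and 11422) and *Etv1* (996 and 401) were higher in O4AID. A difference in medium cannot be told apart from the other differences between the lines. In both lines the promoter is ubiquitous. Untreated O4AID cells carry the same alleles as the treated ones. Untreated CreER cells carry the floxed allele that 4-OHT deletes in the treated ones. No library of IAA-treated cells without a degron was used here.

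OCT4, a POU transcription factor encoded by *Pou5f1*, binds DNA with SOX2 at the enhancers of naive pluripotent cells and is needed to keep ESCs from turning into trophectoderm, the outer layer of the blastocyst. Direct targets of a factor can lose transcription soon after the protein is gone, whereas a transcript that is long-lived, or that depends on another regulator, falls later. A small share of cells in an ESC culture passes through a 2-cell-like state, marked by *Zscan4* genes and other transcripts of the 2-cell embryo, many of which are encoded in arrays of near-identical copies.

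Libraries held 40.5 to 48.7 M (mega) counted reads in O4AID and 21.7 to 30.8 M in CreER. *Pou5f1* itself stood at 10714 and 10564 TMM-normalised counts in the CreER replicates at 0 h and at 3687 and 4113 at 36 h, while the O4AID libraries, which lose the protein and not the transcript, read 23463 at 0 h and 20176 at 24 h. All 6 ESC markers checked (*Nanog*, *Sox2*, *Zfp42*, *Esrrb*, *Dppa5a* and *Utf1*) were present in every library, although *Utf1* was at 157 in untreated O4AID cells against 4722 and 5694 in untreated CreER cells. Their summed level was 131790 at 0 h and 32406 at 24 h in O4AID, and in CreER the replicates spanned 69812–69894 untreated and 60225–61425 after 36 h. The summed level of 7 trophectoderm markers was 572 and 2856.5 at the same O4AID times, and in CreER it spanned 8527–8749 untreated and 16703–18645 after 36 h. Of 6 primitive endoderm markers, *Sox17* and *Foxa2* were not in the table and the other 4 summed to 284 and 1028.5 in O4AID and to 178–197 and 308–320 in CreER. Of 6 fibroblast markers, *Postn* and *Lum* were not in the table and the other 4 summed to 156 and 81.4 in O4AID and to 268–279 and 299–315 in CreER. The 4 neural markers, of which *Tubb3* is a member of the late-only genes, summed to 2117 and 2460 in O4AID and to 7160–7216 and 8499–9282 in CreER. Within them *Pax6* stood at 118 and 413 and *Nes* at 1292 and 1863 in O4AID, opposite to *Tubb3*. *Sox1* stood at 276 and 59.8 there, in the same direction as *Tubb3*. The part of these shifts in the member results was not tested, and in bulk RNA fewer cells of a type and less RNA per cell cannot be told apart.

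The first question was when the members left their starting level in O4AID, as seen in the 1.5 and 10 h libraries that the rule did not use. The median ratio to 0 h was 0.976 at 1.5 h (range 0.560–1.50), 1.01 at 6 h, 0.856 at 10 h (0.572–2.38) and 0.428 at 24 h (0.0821–0.498). For comparison, the 4 medians of every gene at or above 100 in untreated cells were 1.00, 0.993, 0.988 and 0.984. At 10 h, 63 of 132 members stood at or below 0.85 times 0 h, beside 19.9% of all genes at the floor, and no member stood at or below 0.5, beside 1.56%. At 1.5 h, 17 members stood at or below 0.85, beside 5.48% of all genes. By counting error alone, the exact 95% interval of the 10 h ratio lay below 1 for 71 members and above 1 for 12. Such intervals were not taken for all genes, so these counts cannot be read as particular to the members. Over the last interval the ratio of 24 h to 10 h had a median of 0.463 and was at or below 0.5 for 86 members. The rule bounded the 24 h value, so a large late step was favoured by the choice of members. It is a description, and the matching share of all genes was not taken. Each time is a single library and every ratio shares the 0 h library, so these values compare libraries and not conditions.

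**Figure D1:**
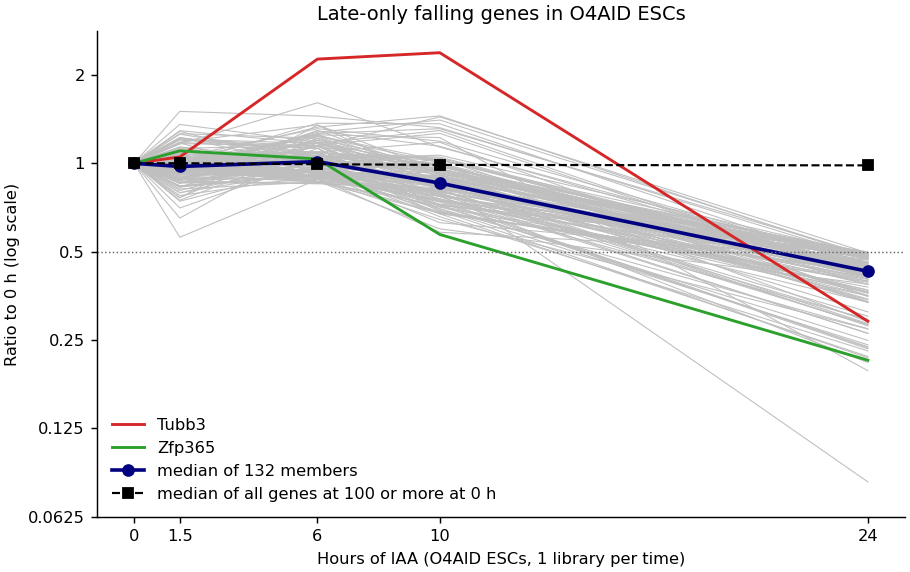
Ratio of each late-only falling gene to its 0 h level (log scale) against hours of IAA in O4AID ESCs, with 1 library at each time; grey lines are the 132 members, the blue line their median, the dashed line the median of all genes at 100 or more at 0 h, and the dotted line 0.5. The median stays near 1 to 6 h, stands at 0.856 at 10 h and at 0.428 at 24 h, while *Tubb3* (red) peaks at 2.38 at 10 h and *Zfp365* (green) is already at 0.572 there.

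The members did not share 1 course. *Zfp365*, a zinc finger gene, had the lowest 10 h ratio and read 369, 407, 381, 211 and 78.6 TMM-normalised counts at 0, 1.5, 6, 10 and 24 h. *Xaf1*, an interferon-inducible inhibitor of XIAP, read 1731, 1682, 1506, 1036 and 671. These genes were among the 14 members with a 10 h ratio from 0.5 to 0.7, with 49 more between 0.7 and 0.85. At the other end, 24 members stood at or above their 0 h level at 10 h, and 9 stood at 1.25 times or more, beside 12.3% of all genes. At 6 h, a time the rule bounded from below only, 14 members stood at 1.25 times or more, beside 7.93% of all genes. *Tubb3*, a neuronal beta-tubulin, had the largest such course with 430, 452, 974, 1024 and 125. *Slc15a1*, a peptide transporter, read 2477, 2462, 3393, 3378 and 1092. *Gdf15*, a stress-induced TGF-beta family ligand, read 176, 264, 255, 233 and 83.5. Higher 6 and 10 h values followed by a 24 h value below 0 h thus appeared in a minority of members, and *Tubb3* lies within the long annotated gene *Gm20388*, so its reads may be shared. The same limit holds for *Pfkp*, *Cdh4*, *Notch4*, *Pim1* and *Stpg1*, which overlap other annotated genes.

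The lowest 24 h ratios belonged to genes of mixed function. *Gm33027*, a non-coding gene on chromosome 7, read 246, 310, 299, 209 and 20.2, a 24 h ratio of 0.0821 (exact 95% Clopper-Pearson interval 0.0542 to 0.12). *Tlx2*, a homeobox factor of enteric neuron development, read 446, 454, 558, 546 and 87.7, a ratio of 0.197 (0.161 to 0.238). *Grb10*, an imprinted adaptor that restrains growth factor signalling, read 3956, 3478, 3537, 3054 and 829, a ratio of 0.209 (0.197 to 0.223). *Zfp365* (0.213), the protease gene *Mep1b* (0.217), the link protein gene *Hapln3* (0.220), the lipocalin gene *Apom* (0.230), *Cdh4* for R-cadherin (0.233), the serine protease gene *Tmprss5* (0.235), *Notch4* (0.237), the myosin gene *Myo1f* (0.241) and *Prom1* for CD133 (0.249) made up the rest of the 12 lowest. All 12 were at or above 0.922 times 0 h at 6 h apart from *Grb10* at 0.894, and at 10 h they ranged from 0.572 for *Zfp365* to 1.22 for *Tlx2*.

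The bounds passed through a continuum. *Dock2* and *Zscan4-ps3* at 101 were just inside the 0 h floor, and *Odad3* at 99.1 and *Rtp2* at 98.4 just outside. *Apod* (0.852) and *Sox21* (0.853) were just inside the 6 h bound and *Sfrp4* and *Cemip* (both 0.846) just outside. *Phgdh* (0.497) was just inside the 24 h bound, and *Mitf* (0.5001) and *Phyhip* (0.502) just outside. For 61 members the counting interval of the 24 h ratio reached above 0.5, for 49 that of the 6 h ratio reached below 0.85, and 45 had both intervals within the bounds.

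Before treatment, the members were of low to middling abundance, and many were much lower in the other line. Their 0 h level in O4AID had a median of 349.7 (101.2 to 41690), against 1073 for all genes at the floor. In CreER the median of the 0 h means was 216.8, and 40 members (30.3%) were under 100 there, beside 8.57% of the genes at the floor. In O4AID, 63 members (47.7%) were at least 2 times as high as in CreER, beside 22.9% of the genes at the floor, and 22 were at least 2 times as high in CreER. The floor was set on O4AID, which favours genes that are higher there. The lines also differ in strain, in genotype, in how OCT4 is lost and possibly in medium. *Tlx2* stood at 446 in O4AID and at 2.6 and 6.61 in CreER. In the opposite direction, *Tubb3* stood at 430 against 4768 and 4714, and *Gm12183*, a pseudogene with 44.2% of its 50-base words in other transcripts, at 462 against 7959 and 8533. *Bcat1*, which starts the breakdown of branched-chain amino acids, was the highest member in O4AID at 41688 and stood at 12233 and 11135 in CreER.

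**Figure D2:**
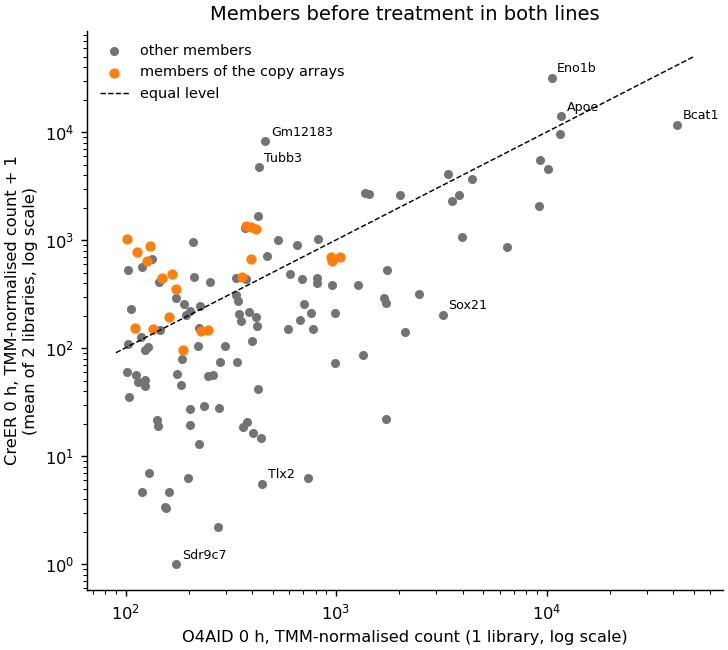
TMM-normalised count at 0 h in O4AID ESCs (1 library) against the mean of 2 CreER libraries plus 1, both on log scales, for the 132 members; orange points are the 21 members of the tandem copy arrays and the dashed line marks equal level. Most grey points lie below the line, with *Tlx2* and *Sdr9c7* near the detection limit in CreER, whereas most orange points lie on or above it.

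CreER libraries were not used to choose the members. Each time was compared with 0 h by edgeR's quasi-likelihood test on 18969 genes, with Benjamini-Hochberg adjustment over all of them. Of the 132 members, 123 passed the filter on low counts, and 9 did not, among them *Tlx2*, *Clec4a1*, *Samd7*, *Fbln5*, *Sdr9c7* and *Dcstamp*. Against 0 h, 0 members were lower and 1 (*Tubb3*) was higher at 12 h, beside 0.137% and 0.258% of all genes tested. At 18 h, 6 were lower and 14 higher, beside 3.79% and 4.73%. At 24 h, 11 were lower and 26 higher, beside 10.6% and 11%. At 36 h, 19 (15.4%) were lower and 39 (31.7%) higher, beside 17.2% and 19.4% of all genes tested, and beside 22.3% and 24.5% of the tested genes that met the O4AID floor. At 36 h, much of the excess of higher over lower calls came with 21 members of copy arrays that may share reads, described below. Of these, 14 were higher and 0 lower. The other 102 tested members had 19 (18.6%) lower and 25 (24.5%) higher at 36 h, near the shares of tested genes at the floor. At 18 h these 102 had 4 lower and 14 higher, beside 5.32% and 6.52% of tested genes at the floor. At 24 h they had 10 lower and 26 higher, beside 14.7% and 13.25%, while the arrays had 1 lower and 0 higher. The excess at 18 and 24 h thus lay outside the arrays. The median log2 fold change of all 123 tested members was -0.01, 0.01, 0.04 and 0.12 at 12, 18, 24 and 36 h. Their 36 h range ran from -1.05 to 1.23. With scaling by total counts, which shifts the median of all genes by -0.08 at 36 h, the 36 h calls were 26 lower and 29 higher and the median 0.04. The number of members called at 18 and 24 h rested on single libraries: without the second 0 h library, 1 was lower and 8 higher at 18 h and 5 lower and 16 higher at 24 h, and without the first 24 h library 5 were lower and 17 higher at 24 h, without the second 17 were higher. Without the second 18 h library 1 was lower at 18 h, without the first 1 lower and 8 higher, without the first 0 h library 22 higher, and without either 12 h library 2 were lower.

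Only *Myo1f* among the 123 tested members reached a log2 fold change of -1 or below at 36 h. Of the 92 members that stood at 100 or more in CreER at 0 h, 18 were lower and 34 higher at 36 h. Among tested genes at the O4AID floor, 22.3% were lower and 24.5% higher. In the 92 members, the ratio of the 36 h mean to the 0 h mean ran from 0.469 (*Myo1f*) to 1.82 (*Slit2*) with a median of 1.04. Over the 4 times, 22 members were called lower at 1 or more times and never higher, 46 higher and never lower, 2 in both directions (*Eif1ad7* and *Eif1ad2*, lower at 18 h and higher at 36 h) and 53 at no time. A p that misses the threshold does not show that those 53 did not change. *Myo1f*, *Grb10*, *Uchl1*, *Lrch2*, *Rpl39l*, *Eef1e1*, *Gas2l3* and *Gm12183* were lower at both 24 and 36 h, and 17 members were higher at both. For the counts over the 4 times and at both times, the matching shares of all genes were not taken. No balance of direction can be read from them. Side by side with no test, the 101 genes already at or below 0.5 at 6 h in O4AID had 52 of 91 tested lower and 4 higher at 36 h in CreER with a median log2 fold change of -0.57, and the 279 genes in between had 126 of 260 lower and 37 higher with a median of -0.26. The O4AID course runs to 24 h and the CreER course to 36 h, OCT4 is lost at different speeds in the lines, and with 1 library at each O4AID time the difference between the lines could not be tested.

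From 24 to 36 h in CreER, 14 members were lower and 23 higher, beside 6.55% and 8.13% of all genes tested. Scaling by total counts, which shifts the median of all genes by -0.107 between these times, gave 23 lower and 13 higher, so no balance of direction can be read for the members as a whole over this step. Without the first or the second 24 h library the calls were 7 lower and 15 higher or 6 lower and 14 higher, and without the second 36 h library 7 were lower.

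A set of 21 members belonged to clustered copy families on chromosomes 7, 10, 12, 2 and 13, called copy arrays here, most of them known from 2-cell embryos or 2-cell-like cells. They were grouped after the members were known. The group held *Zscan4a*, *Zscan4b*, *Zscan4e*, *Zscan4f*, *Zscan4-ps1* and *Zscan4-ps3* (the *Zscan4* genes encode zinc finger proteins linked to telomere maintenance and genome stability in ESCs, and *Zscan4a* is annotated here as a pseudogene), 5 genes that resemble the translation initiation factor eIF1A (*Eif1ad2*, *Eif1ad3*, *Eif1ad7*, *Eif1ad8* and *Eif1ad10*), *Usp17lc* of the USP17 deubiquitinases, and *Gm6763*, *Gm8764*, *Gm21293*, *Gm13693*, *Gm13695*, *Gm13698*, *B020031M17Rik*, *Gm20767* and *Gm21818*. In the list of 14 genes of the 2-cell-like state written for this work, 9 met the floor and 6 of those were members. The *Zscan4* members lie between 10794242 and 11614112 on chromosome 7 and the eIF1A-like members between 87514316 and 88274500 on chromosome 12 (GRCm38).

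Most of the copies are close enough in sequence that reads can map to several of them, which bears on the values in this group. Of the 50-base words in their transcripts, 63.6% of those of *Zscan4a*, 86.8% of *Zscan4f*, 89.0% of *Zscan4e*, 90.1% of *Zscan4b* and 100% of *Gm6763*, *Gm8764*, *Gm13693*, *Gm13698* and *Eif1ad10* occur in another gene. For *Zscan4-ps1*, *Eif1ad8*, *Usp17lc*, *B020031M17Rik* and *Gm21818* the share was under 50%. The likeness extends upstream in the pairs shown here. The 250 bases before the RefSeq starts (GRCm38.p6) of *Zscan4b* at chr7:10905051-10905300 on the minus strand and *Zscan4f* at chr7:11397665-11397914 on the plus strand align without a gap and share 237 of 250 bases (94.8%). They are shown to give the likeness of the copies, with the 13 bases that differ in capitals:
Zscan4b: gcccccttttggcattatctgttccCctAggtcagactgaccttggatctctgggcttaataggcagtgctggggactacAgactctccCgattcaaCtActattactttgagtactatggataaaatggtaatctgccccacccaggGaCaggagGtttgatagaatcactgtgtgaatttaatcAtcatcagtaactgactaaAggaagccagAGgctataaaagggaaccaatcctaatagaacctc
Zscan4f: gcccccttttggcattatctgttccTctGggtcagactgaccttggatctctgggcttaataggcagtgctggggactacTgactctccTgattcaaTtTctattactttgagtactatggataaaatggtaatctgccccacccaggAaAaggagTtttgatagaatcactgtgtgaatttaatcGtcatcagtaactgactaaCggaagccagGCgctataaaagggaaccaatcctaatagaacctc
Both stretches hold the letters TATAAA and CCAAT near their downstream end. For the chromosome 10 array, the 250 bases before *Gm21293* (chr10:104142737-104142986, plus strand) and before *Gm8764* (chr10:104159756-104160005, plus strand) were the same at 250 of 250 positions, so the sequence is shown once:
Gm21293 and Gm8764: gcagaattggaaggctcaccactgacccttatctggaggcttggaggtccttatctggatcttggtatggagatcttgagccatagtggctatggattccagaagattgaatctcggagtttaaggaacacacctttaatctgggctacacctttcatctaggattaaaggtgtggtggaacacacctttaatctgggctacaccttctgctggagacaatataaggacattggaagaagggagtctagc

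In O4AID the rule bounds the 6 and 24 h values of the 21 copy-array members, and within those bounds their courses varied. Their median ratio to 0 h was 1.196 at 6 h (range 0.924–1.35), 0.930 at 10 h (0.685–1.14) and 0.436 at 24 h (0.273–0.492). *Zscan4f* read 394, 336, 510, 363 and 189 TMM-normalised counts at 0, 1.5, 6, 10 and 24 h. *Zscan4b* read 126, 96.5, 154, 123 and 61.2. *Eif1ad7* read 418, 347, 491, 343 and 154. In each of these genes the 1.5 h value was below 0 h and the 6 h value the highest, and 6 h was the highest time in 18 of the 21. *B020031M17Rik* was an exception, highest at 1.5 h (1.21 times 0 h), and *Gm21818* was another, with no later value above 0 h. The rule favours a high 6 h value, and copies may share reads, so the 18 are not separate observations. The matching share of other genes was not taken. The arrays did not stand apart as whole units, because the bounds passed through them. *Zscan4c* (0.548), *Zscan4d* (0.549) and *Zscan4-ps2* (0.531) had 6 h ratios of 1.23, 1.28 and 1.23 and missed only the 24 h bound. On chromosome 10, *Gm4340*, *Gm21312*, *Gm20765* and *Gm21304* had 24 h ratios of 0.445, 0.440, 0.461 and 0.588 but 0 h levels of 71.2 to 84.5, under the floor, against 947 to 1047 for the 3 member copies. In CreER the same 4 copies stood at 651 to 691 and the 3 members at 639 to 702. The counts of these copies were thus unequal in O4AID and alike in CreER. On chromosome 2, *Gm13691*, *Gm13694*, *Gm13696* and *Gm13697* stood at 17.5 to 24.4 in O4AID, against 135 to 246 for the 3 members. In CreER they stood at 144 to 157 and the members at 142 to 151. Such counts depend on how reads shared by copies were assigned.

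In CreER the copy arrays were higher late. At 24 h, 1 of 21 (*Gm13693*) was lower and none higher by edgeR, and 5 had a log2 fold change above 0. At 36 h, 14 of 21 were higher and none lower, and 19 had a log2 fold change above 0. Between 24 and 36 h, 16 were higher and none lower, beside 11.4% and 7.80% of tested genes at the floor. That count was 11 with scaling by total counts and 13 with DESeq2, none lower in either. All 6 *Zscan4* members were higher at 36 h, with log2 fold changes from 0.23 (*Zscan4a*) to 0.42 (*Zscan4-ps1*), and of the 5 eIF1A-like members 4 were. Without the second 0 h library *Zscan4a* (0.16, adjusted p = 0.0854) and *Zscan4e* (0.17, adjusted p = 0.104) were not called, nor was *Zscan4a* without the second 36 h library (0.17, adjusted p = 0.0753) or with scaling by total counts (0.14, adjusted p = 0.0761). *Zscan4f* stood at 1352 and 1272 at 0 h, 1390 and 1286 at 24 h and 1531 and 1798 at 36 h, a 36 h log2 fold change of 0.36 ± 0.077 (SE, edgeR adjusted p = 8.89e-04). *Zscan4b* stood at 664 and 617 at 0 h, 688 and 632 at 24 h and 771 and 822 at 36 h, a log2 fold change of 0.33 ± 0.079 (adjusted p = 0.00137). Both 36 h replicates of each lay above both 0 h replicates. *Eif1ad7* stood at 1328 and 1214 at 0 h, 1076 and 1123 at 18 h and 1551 and 1607 at 36 h, and was lower at 18 h (log2 fold change -0.20 ± 0.060, adjusted p = 0.0396) and higher at 36 h (0.33 ± 0.059, adjusted p = 5.36e-05). Reads may be shared among copies, so these genes may not be independent counts. The 36 h count was 9 with scaling by total counts and 10 with DESeq2, none lower in either, and 9 to 14 with single libraries left out. The 102 other tested members, whose shares of 36 h calls were near those of genes at the floor, had a 36 h median of 0.06. Of the whole list of 2-cell-like genes, 0 of 13 tested were lower and 11 higher at 36 h. Among all genes tested, 17.2% were lower and 19.4% higher. The list holds 6 of the members above and further *Zscan4* copies, so it is no separate readout.

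**Figure D3:**
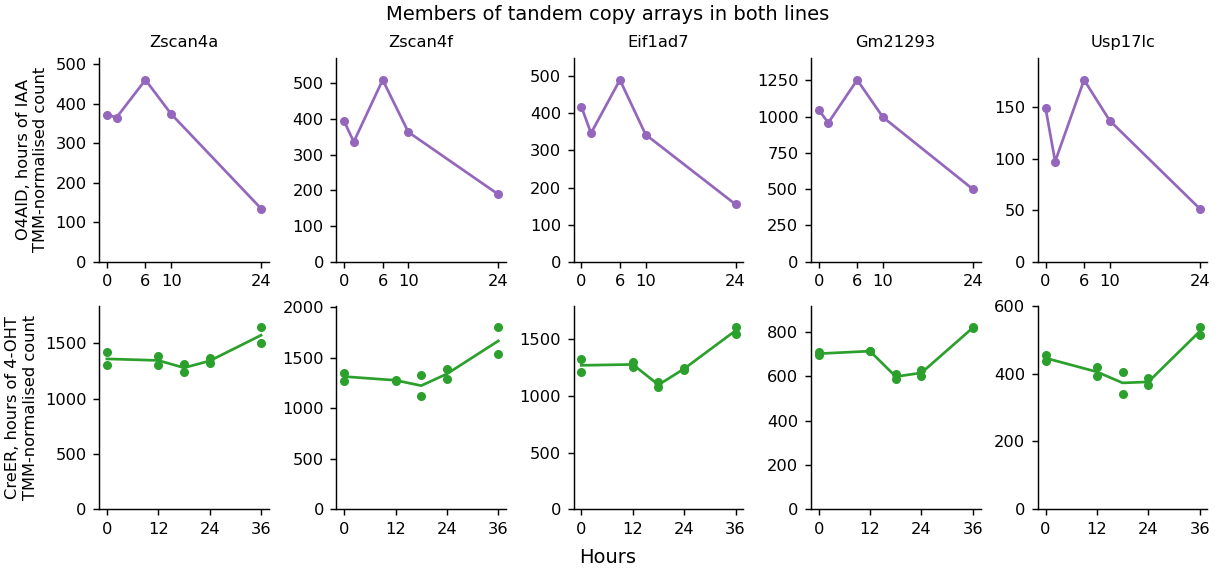
TMM-normalised counts of 5 members of the tandem copy arrays in O4AID ESCs (upper panels, 1 library at each of 0, 1.5, 6, 10 and 24 h of IAA) and in CreER ESCs (lower panels, points are 2 libraries at each of 0, 12, 18, 24 and 36 h of 4-OHT, the line their mean). In O4AID every gene is highest at 6 h and lowest at 24 h, and in CreER every gene has its highest mean at 36 h.

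Transcription factors made up 6 of the 132 members by the roles assigned. None of the 17 naive pluripotency factors listed was a late-only gene: all 17 met the floor, 12 stood at or below 0.5 times 0 h at 24 h and 8 of those already did so at 6 h. In CreER at 36 h, 10 of the 17 were lower and 3 higher. Factors among the members included *Tlx2*, *Sox21*, *Prdm16* and *Tcf15*. *Sox21*, a SOXB2 factor that counteracts SOX2-type activators in neural progenitors, read 3222, 2768, 2748, 2932 and 1425 in O4AID. In CreER it stood at 215 and 193 at 0 h, 259 and 279 at 18 h, 319 and 287 at 24 h and 394 and 347 at 36 h. It was higher at 18, 24 and 36 h, with a 36 h log2 fold change of 0.89 ± 0.114 (adjusted p = 4.26e-07), and its 0 h level in CreER was far under that in O4AID. *Tcf15*, a bHLH factor of primed epiblast and somites, had a 36 h log2 fold change of -0.23 (adjusted p = 0.0744), and *Prdm16* (0.05) was not called.

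At 36 h in CreER, 1 of 15 signalling members was lower and 5 were higher. For this and every other role group, the background is 22.3% lower and 24.5% higher among tested genes at the floor, and groups of this size are too small to be read against it. *Grb10*, an adaptor, stood lower late in both lines, and its CreER values were 1069 and 1093 at 0 h, 1087 and 1124 at 12 h, 937 and 1018 at 18 h, 832 and 913 at 24 h and 690 and 744 at 36 h. It was lower at 24 h (log2 fold change -0.30 ± 0.066, adjusted p = 0.00146) and at 36 h (-0.58 ± 0.070, adjusted p = 1.83e-07). The 5 higher members were *Gdf15*, *Slit2*, *Dner*, *Gna15* and *Pim1*. *Gdf15* stood at 65.1 and 47.3 at 0 h and 112 and 122 at 36 h, a log2 fold change of 1.09 ± 0.197 (adjusted p = 7.01e-05). *Slit2*, a secreted ligand of ROBO receptors, stood at 255 and 254 at 0 h and 491 and 436 at 36 h (0.89 ± 0.098, adjusted p = 3.26e-08). *Dner*, a Notch-family ligand, stood at 79.5 and 66.1 at 0 h, 77.4 and 80.9 at 24 h and 131 and 118 at 36 h (0.81 ± 0.174, adjusted p = 5.49e-04). For all 3 the 36 h replicates lay above both 0 h replicates, while O4AID at 24 h stood at 0.475, 0.437 and 0.352 times 0 h. *Pim1*, a serine/threonine kinase induced by STAT3, was the only member of the 12-gene LIF-STAT3 list. It read 3827, 4065, 3432, 2861 and 1397 in O4AID and was higher in CreER at 18, 24 and 36 h (0.22, 0.33 and 0.32). Of the 12 genes of that list, 3 were lower and 5 higher in CreER at 36 h. *Notch4* was higher in CreER at 18 and 24 h (0.46 and 0.45) and not called at 36 h (0.15).

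Metabolic genes included *Bcat1*, the most abundant member in O4AID. It read 41688, 39982, 35812, 33404 and 17968 in O4AID, with its largest step between 10 and 24 h. In CreER it stood at 12233 and 11135 at 0 h, 12411 and 12357 at 24 h and 14748 and 15331 at 36 h, and was higher at 36 h alone (0.38 ± 0.043, adjusted p = 5.29e-08). *Phgdh*, the first enzyme of serine synthesis, read 6503, 6329, 6166, 5471 and 3231 in O4AID, and 899 and 830 at 0 h and 683 and 783 at 36 h in CreER (-0.22 ± 0.073, adjusted p = 0.0182). Without the first 36 h library its log2 fold change was -0.13 with an adjusted p of 0.291, without the first 0 h library -0.17 with 0.136. *Slc16a3*, the lactate exporter MCT4, read 1372, 1088, 1398, 1138 and 596 in O4AID, and 2778 and 2692 at 0 h and 2000 and 2056 at 36 h in CreER (-0.41 ± 0.053, adjusted p = 4.74e-07). *Pfkp*, the platelet phosphofructokinase, stood at 0.337 times 0 h at 24 h in O4AID but was higher in CreER, with 5304 and 5687 at 0 h, 6985 and 6976 at 24 h and 5918 and 6211 at 36 h (24 h: 0.36 ± 0.043, adjusted p = 6.18e-07). At 36 h the change of 0.16 (adjusted p = 0.00498) was not called with scaling by total counts (0.07, adjusted p = 0.22), without the first 0 h library (0.11, 0.0763) or without the second 36 h library (0.13, 0.0506). Of the 10 metabolic and transport members, 5 were lower (*Ddc*, *Slc16a3*, *Abcb1a*, *Eno1b* and *Phgdh*) and 2 higher (*Bcat1* and *Pfkp*) at 36 h. *Eno1b*, an intronless copy of the glycolytic enolase gene *Eno1*, shares 85.2% of its 50-base words with other transcripts, so its course (10573, 8641, 9134, 7600 and 5236) may belong to *Eno1*. *Pfkp* was the only member of 21 glycolysis genes listed, of which 3 stood at or below 0.5 at 24 h in O4AID, *Phgdh* the only one of 18 serine and one-carbon genes, and *Slc16a3* the only one of 16 nutrient transporters. At 36 h in CreER these 3 lists had 11, 10 and 10 genes lower and 5, 2 and 3 higher.

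Of the 5 lipid carriers and lipid-handling genes, 1 was higher and 1 lower in CreER at 36 h. *Apoe*, the apolipoprotein of lipid transport between cells, read 11744, 11974, 11907, 9664 and 5420 in O4AID. In CreER it stood at 14636 and 13412 at 0 h and 16035 and 15626 at 36 h (0.19 ± 0.044, adjusted p = 8.77e-04), and with scaling by total counts the change was 0.11 with an adjusted p of 0.0843. *Angptl4*, an inhibitor of lipoprotein lipase, read 468, 572, 507, 361 and 228 in O4AID and was lower in CreER, with 682 and 734 at 0 h and 471 and 532 at 36 h (-0.49 ± 0.083, adjusted p = 3.05e-05). *Apom* and *Apod* were at 20.8 or less in both untreated CreER libraries, and *Lrp8*, a receptor for APOE, had a 36 h log2 fold change of -0.11, and none of these was called.

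Cytoskeletal and junction genes, with *Uchl1* grouped among them, included *Myo1f*, which was lower in CreER, and *Tubb3*, which was higher. *Myo1f*, a class I myosin best known from immune cells, read 387, 465, 436, 271 and 93.2 in O4AID. In CreER it stood at 211 and 219 at 0 h, 173 and 162 at 18 h, 134 and 151 at 24 h and 116 and 86.3 at 36 h, and was lower at 24 h (-0.59 ± 0.132, adjusted p = 0.00167) and 36 h (-1.05 ± 0.147, adjusted p = 1.80e-06). *Uchl1*, a neuronal ubiquitin hydrolase, read 426, 416, 503, 365 and 121 in O4AID, and 1631 and 1731 at 0 h and 1159 and 1166 at 36 h in CreER (-0.51 ± 0.056, adjusted p = 3.19e-08). *Gas2l3*, which links actin and microtubules in dividing cells, was lower at 18, 24 and 36 h (-0.19, -0.22 and -0.26). Against these, *Tubb3* was higher at all 4 CreER times, with 4768 and 4714 at 0 h, 5627 and 5517 at 12 h, 5773 and 5646 at 18 h, 5977 and 6134 at 24 h and 6499 and 7193 at 36 h (0.55 ± 0.044 at 36 h, adjusted p = 9.16e-11). Its 24 h level in O4AID was 125, after 1024 at 10 h. *Tubb2b*, another neural beta-tubulin, read 9186, 8855, 8373, 8106 and 3765 in O4AID and was lower in CreER at 36 h (-0.21 ± 0.059, adjusted p = 0.00528). *Marcksl1*, an actin regulator, read 11595, 11592, 11795, 9621 and 5086 in O4AID and was higher in CreER at 36 h, with 10597 and 8669 at 0 h and 13435 and 13957 at 36 h (0.53 ± 0.074, adjusted p = 1.92e-04). *Cdh4* was also higher at 36 h (0.54 ± 0.118, adjusted p = 6.72e-04). Of the 11 members of this group, 5 were lower and 3 higher at 36 h.

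**Figure D4:**
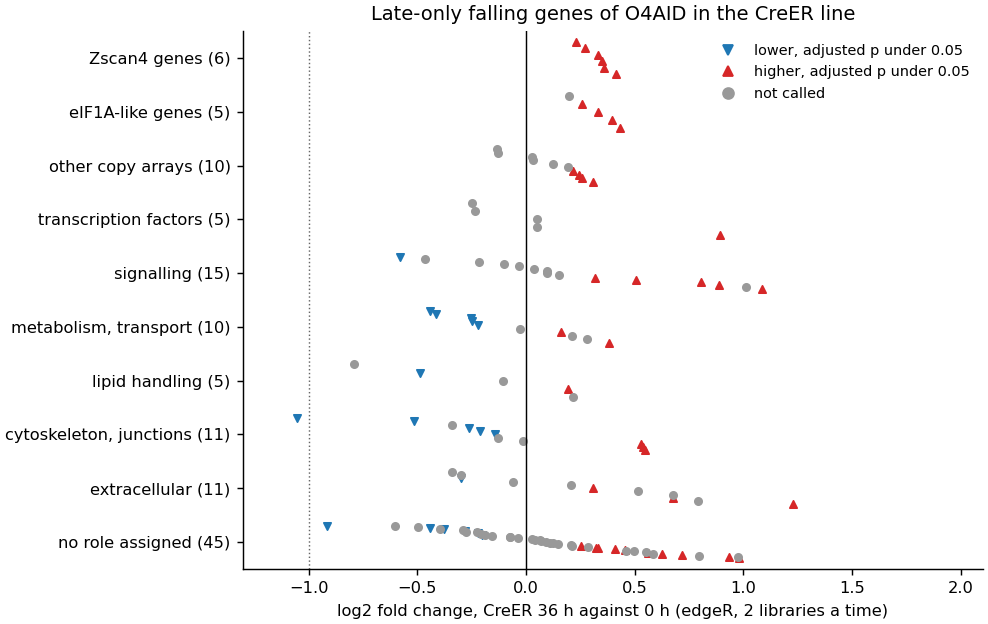
log2 fold change at 36 h against 0 h in CreER ESCs (edgeR, 2 libraries at each time) for the 123 tested members, by role, with the number of tested members in brackets; triangles up and down are members higher and lower at an adjusted p under 0.05, grey circles are not called, and the dotted line marks -1. Only *Myo1f* lies beyond -1, all 6 *Zscan4* members lie above 0, and the metabolic and cytoskeletal groups have members on both sides.

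Secreted and extracellular genes were lower at 36 h in 1 of 11 tested (*Pcolce2*) and higher in 3 (*Tmprss5*, *Mmrn2* and *Vwf*). *Mmrn2* and *Vwf*, both best known from endothelial cells, stood at 0.264 and 0.434 times 0 h at 24 h in O4AID. *Mmrn2* read 1682, 1542, 1579, 1296 and 443 there, and 289 and 294 at 0 h, 448 and 472 at 24 h and 456 and 464 at 36 h in CreER (0.68 ± 0.094, adjusted p = 1.72e-06). *Tmprss5* had the largest 36 h change of any member called, with 31.3 and 25.3 at 0 h and 64.2 and 65.9 at 36 h (1.23 ± 0.272, adjusted p = 7.27e-04). *Hapln3*, which links hyaluronan to proteoglycans, was at 377 in O4AID and at 19.5 and 19.8 in CreER at 0 h, and its 36 h change of 0.67 was not called (adjusted p = 0.127). Among the 52 members with no role assigned, 45 were tested, of which 6 were lower and 10 higher at 36 h. Among them were *Stpg1* (0.98 ± 0.261, adjusted p = 0.00403) and *Adgrd1*, an adhesion G-protein-coupled receptor (0.93 ± 0.184, adjusted p = 1.92e-04), both higher. *Chchd10*, a mitochondrial cristae protein and among the 8 most abundant members, read 10131, 10160, 10477, 8758 and 4664 in O4AID and was not called in CreER (0.12, adjusted p = 0.154), although without the first 0 h library it was (0.26, adjusted p = 2.14e-04). *Prom1* was higher at 36 h (0.25 ± 0.075, adjusted p = 0.00878), and with scaling by total counts the change was 0.17 with an adjusted p of 0.0743. Without the second 0 h library it was 0.21 with an adjusted p of 0.082, and without the second 36 h library 0.19 with 0.113.

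**Figure D5:**
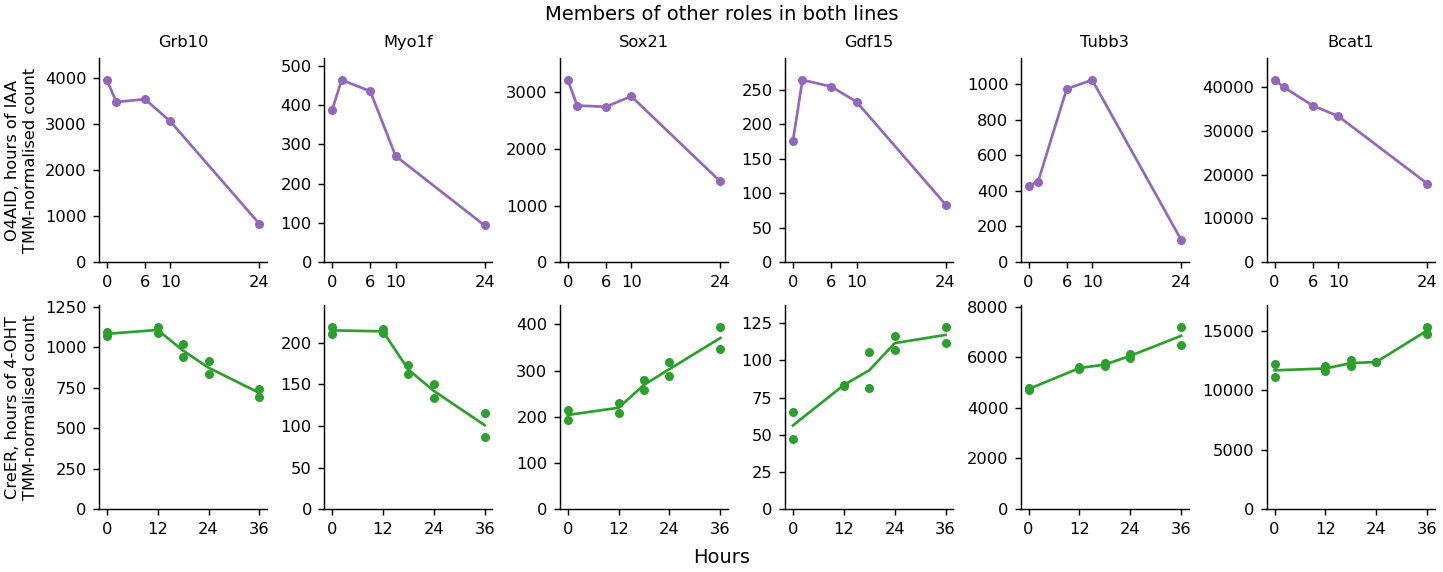
TMM-normalised counts of 6 members of other roles in O4AID ESCs (upper panels, 1 library at each of 0, 1.5, 6, 10 and 24 h of IAA) and in CreER ESCs (lower panels, points are 2 libraries at each of 0, 12, 18, 24 and 36 h of 4-OHT, the line their mean). *Grb10* and *Myo1f* are lowest at the last time in both lines, whereas *Sox21*, *Gdf15*, *Tubb3* and *Bcat1* are lowest at 24 h in O4AID and highest at 36 h in CreER.

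In features that the rule did not use, the members were shorter than other genes at the floor, with a median exonic length of 2638 bases against 4052. By the GENCODE vM21 annotation 120 were protein coding (90.9%, beside 94.5% of genes at the floor), 7 pseudogenes (5.30%, beside 2.85%) and 5 non-coding (3.79%, beside 2.64%). Of the 132, 19 (14.4%) lay on chromosome 7, beside 7.68% of genes at the floor, among them the *Zscan4* array. At least 50% of the 50-base words were shared with another gene in 18 members, and no word in 65. RefSeq promoter windows (GRCm38.p6, 250 bases before to 50 after the start, both strands read) were found for 78 members, as 99 windows. The octamer ATGCAAAT, to which POU factors bind, was in 2 of the 99 (2.02%), beside 1.74% of all 32851 windows, and the SOX letters CATTGTT in 2 (2.02%), beside 3.78%. The ESRRB letters TCAAGGTCA were in none, beside 0.423%, the KLF letters GGGNGTGG in 22 (22.2%), beside 17.6%, and the E-box CACGTG in 8 (8.08%), beside 7.15%. TATAAA was in 13 (13.1%), beside 13.6%, and CCAAT in 35 (35.4%), beside 37.4%. These shares describe letters in short windows and not binding. Windows with an octamer belonged to *Chchd10*, where 2 copies start 83 and 70 bases before the RefSeq start, and to *Hapln3*, where the reverse complement starts 167 bases before it. The 250 bases before *Hapln3* (chr7:79131019-79131268, minus strand) are shown as the member window with an octamer that adjoins the counted gene, with the octamer in capitals:
Hapln3: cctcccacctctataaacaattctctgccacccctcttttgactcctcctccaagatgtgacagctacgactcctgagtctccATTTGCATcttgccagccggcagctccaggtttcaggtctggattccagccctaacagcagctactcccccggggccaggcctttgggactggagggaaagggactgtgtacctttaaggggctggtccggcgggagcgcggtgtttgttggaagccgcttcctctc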

How the data were processed

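RNA-seq was made from ribosomal RNA-depleted total RNA with a directional kit. According to the submitters' processing notes and the study's methods, reads were trimmed with Trim Galore 0.1.4, aligned to GRCm38/mm10 with TopHat2 2.1.0 and counted per gene with featureCounts 1.5.1; strand and multimapping settings are not given in the sources used here, so overlapping genes and near-identical copies may share reads. The deposited files hold raw read counts per gene for each library, and the deposited table of the whole series holds a signal, TMM-normalised counts of 16772 genes by symbol, of which 16766 were matched to a count row. The 92 spike-in rows held 0 reads and were left out.

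Groups were taken from the labels. Members were chosen by the O4AID values of the table. The members, the gene lists and the roles were chosen with earlier results of these data known, and the roles after the members were listed. CreER counts of all 10 libraries were fitted with edgeR 4.0.16 (R 4.3.3; TMM factors, filterByExpr, robust quasi-likelihood test), each time was contrasted with 0 h and 36 h with 24 h, with Benjamini-Hochberg adjustment over all genes tested and calls at an adjusted p of 0.05. Each SE was derived from this test, as the absolute log2 fold change divided by the square root of its F statistic. Alternatives used DESeq2 1.42.0, other scalings and filters, and single libraries left out. No source says that CreER replicates are separate cultures, so p-values measure the spread between these libraries, which may be technical. O4AID ratios carry exact 95% Clopper-Pearson intervals, which cover counting error only, as there are no molecular identifiers. Shared sequence was measured as the share of 50-base words of a gene's GENCODE vM21 transcripts found in another gene. Upstream sequences are from RefSeq (GRCm38.p6), aligned with Biopython 1.88.

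Genes were named by rule: *Pou5f1*, the 12 members with the lowest 24 h ratio, the 8 with the highest 0 h value, the 5 lowest and 5 highest called at 36 h in CreER, members of the written lists, and the 2 genes on either side of each bound. Further members were named for their known role after their values were seen. Some members that these rules would name are not reported here.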

Additional observations from a re-analysis of the deposited data

Results flagged for a closer look

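For 10 of the members named by rule, which stood at or below 0.5 times 0 h in O4AID at 24 h, both CreER replicates at 24 h lay above both at 0 h and edgeR called the gene higher. The difference between the lines was not tested, since O4AID has 1 library at each time. The CreER log2 fold changes at 24 h were 1.03 for *Stpg1*, 1.02 for *Gdf15*, 0.59 for *Sox21*, 0.45 for *Notch4*, 0.42 for *Cdh4*, 0.36 for *Tubb3*, 0.36 for *Pfkp*, 0.33 for *Pim1*, 0.27 for *Marcksl1* and 0.14 for *Apoe*. These genes were picked for this pattern, so their number is no measure of how common it is.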

How the results depend on the processing

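The number of late-only genes followed the bounds more than the scaling. It was 215 with a 6 h bound of 0.75, 84 with 0.95, 50 with a 24 h bound of 0.4 and 317 with 0.6. TMM recomputed from the counts gave 135 genes, all 132 members among them, and scaling by total counts gave 122, of which 102 were members. With the 1.5 h library as the reference in place of 0 h, 159 genes met the rule, 99 of them members, so which genes are members rests in part on the single 0 h library. With scaling by total counts, 0 members were higher at 12 h and the 36 h median log2 fold change was 0.038, and from 24 to 36 h the calls were 23 lower and 13 higher with a median of -0.13. Without a filter on low counts 2 were higher at 12 h, and with only the 4 libraries compared 3 were lower at 18 h. DESeq2 called 2 lower and 9 higher at 18 h, 6 lower at 24 h, and 7 lower and 15 higher from 24 to 36 h.

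Leaving out single CreER libraries gave 0 to 4 members higher at 12 h, 1 to 9 lower and 8 to 22 higher at 18 h with a median from -0.0103 to 0.0467, 5 to 14 lower and 16 to 27 higher at 24 h, a 36 h median from 0.115 to 0.156, and 6 to 16 lower and 14 to 25 higher from 24 to 36 h with a median from -0.0229 to 0.00495.

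Numbers shared by CreER replicates did not pair the libraries: over the 10 pairs of times the correlation of deviations from the group means ran from -0.02 to 0.046. With the replicate number as a block, 5 were lower and 18 higher at 18 h, 11 and 27 at 24 h and 19 and 39 at 36 h, and no count moved by over 1.5 times. Of the 45 named genes with a CreER fit, 31 were called at 36 h; none reversed, and 8 lost the call under 1 or more other settings and 8 with a single library left out. *Dock2* gained a call (lower) with RLE size factors, scaling by total counts or a minimum of 10 counts. For members near 100 counts in CreER, and for the 9 not tested, depth limits what could be seen. The cause of these shifts was not tested.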
